A study of Arabidopsis thaliana with 16 samples.

Results

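The genes described here had higher mRNA levels after a jasmonic acid (JA) spray on adult Arabidopsis leaves than after water, and ended at a still higher level in plants that had already been sprayed with JA as seedlings. They were chosen on CPM (the read count of a gene scaled to the library total) averaged over the 4 replicates of a group, with 0.5 added to each mean. The rule asked for a largest group mean of at least 2.5, a W_JA/W_W ratio of at least 1.75, a JA_JA/W_JA ratio of at least 1.5 and a JA_W/W_W ratio between 0.67 and 1.5. It took 28 of the 34262 genes listed. Since all 4 group means chose the members, every level and ratio below is a description of these libraries, and no contrast of the members was tested as evidence.

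The study asked whether a JA spray on seedlings still alters how adult leaves answer JA. All plants were Arabidopsis thaliana of the Col-0 ecotype, grown at 21 °C with 8.5 h days, and rosette leaves were taken at 5 weeks of age, 4 h after the adult spray. Each library was made from poly(A) RNA pooled from 8 leaves of 2 plants, and read as 50 bp single-end reads. A group is named by its seedling spray at 2 weeks (the history) and then its adult spray at 5 weeks (the challenge): W_W had water and water, W_JA had water and then 0.1 mM JA, JA_W had 1 mM JA and then water, and JA_JA had 1 mM JA and then 0.1 mM JA. Each group had 4 replicates, every spray held the surfactant Silwet L-77 at 0.02%, and water sprays carried the ethanol of the matching JA spray.

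Jasmonates are lipid-derived hormones that plants make when wounded or attacked by chewing insects and some microbes. The conjugate of JA with isoleucine joins the receptor COI1 to JAZ repressor proteins, the JAZ proteins are degraded, and the transcription factors they held back switch on genes for defence proteins and specialised metabolites. Priming is the name for a state after an earlier stimulus in which a gene is little changed at rest and responds faster or more strongly to a later one.

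The libraries held 32190193 to 34319939 counted reads, so 1 read was about 0.0293 CPM. The 28 genes were all among the 19224 genes kept for testing by a filter on low counts, which a gene can pass through its highest group alone. On deposited CPM the median gene tested stood at a log2 ratio of -0.11 for W_JA/W_W, -0.08 for JA_JA/W_JA and -0.07 for JA_W/W_W. After TMM scaling these medians were 0.00, 0.01 and 0.04, so ratios of deposited CPM carry that shift. The leaf label was checked with mesophyll markers (LHCB1, RBCS3B, RBCS1A, RCA and PSBO1). Their summed level was 27215 to 39258 CPM over the water-history libraries and 36919 to 47635 CPM over the JA-history libraries. The genes listed for trichomes (GL1, GL2, ETC2 and TCL1) summed to 6.20 to 7.98 CPM in W_JA and 8.35 to 9.41 CPM in JA_JA. GL1 was under 0.1 CPM in every library. Between the W_JA and JA_JA means, GL2 went from 2.98 to 4.19, TCL1 from 0.688 to 1.07 and ETC2 from 3.64 to 3.54 CPM. Dividing-cell markers summed to 3.22 to 3.76 and 3.76 to 8.09 CPM, guard cell markers to 67.7 to 76.4 and 46.5 to 90.0 CPM, and phloem companion cell markers to 491 to 579 and 408 to 770.3 CPM in the same groups. The part of these shifts in the members' levels was not tested, and in bulk leaf RNA fewer cells of a type and less RNA per cell cannot be told apart.

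The genes ran from near silence to high expression. Their mean level in W_W was 0 to 32.5 CPM with a median of 1.44 CPM, and 13 of the 28 were under 1 CPM there. In JA_JA it was 2.54 to 312 CPM with a median of 26.9 CPM. Per kilobase of transcript, GolS1 was highest in JA_JA at 224 CPM, followed by TPS10 at 98.0, AT5G44720 at 85.4 and ILL5 at 81.4, and FH3 was lowest at 0.991. The JA_JA/W_JA ratio was 1.53 to 3.17 with a median of 1.74, and W_JA/W_W was 1.76 to 138 with a median of 3.85.

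In 24 of the 28 genes all JA_JA libraries lay above all W_JA libraries, beside 9.47% of the genes tested. The exceptions were CYP81D11, AT4G11211, THI2.1 and AT5G38130, where single libraries of the groups crossed. All 28 were above W_W in every W_JA library (8.09% of the genes tested) and above JA_W in every JA_JA library (10.3%). Without a challenge, the JA_W mean was above the W_W mean in 22 genes, and in 10 the libraries did not overlap (25.2% of the genes tested). Nothing follows from these counts, since the rule used the same means.

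**Figure D1:**
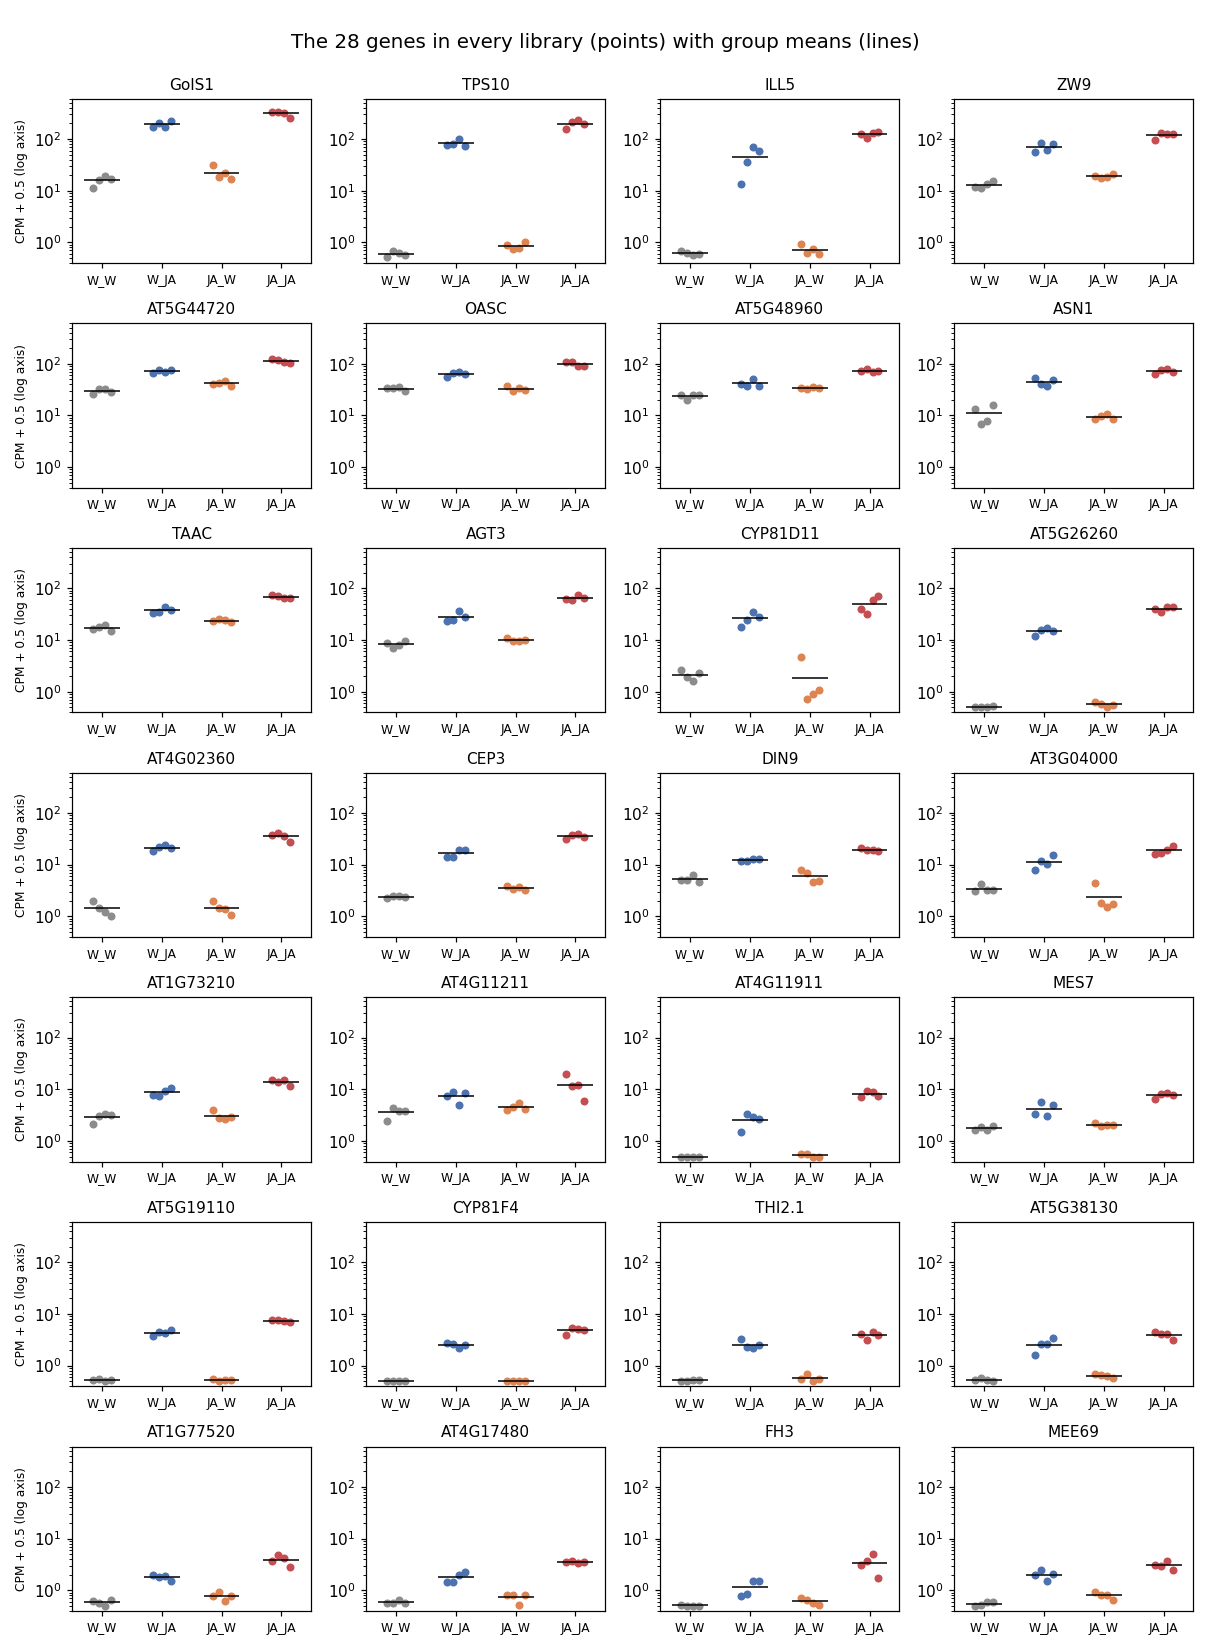
Level of each of the 28 genes in all 16 libraries, as CPM + 0.5 on a log axis against group; points are libraries (n = 4 a group) and lines are group means. JA_JA lies above W_JA in every panel mean, and 13 genes sit near the bottom of the axis without a challenge.

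The same rule without its condition on JA_JA/W_JA held 231 genes that the challenge raised and that history left within the 0.67 to 1.5 range. Of these, 28 (12.1%) had a higher, 166 (71.9%) a similar and 37 (16.0%) a lower final level in JA-history plants. The share of genes under 1 CPM in W_W was 46.4% among the genes with a higher final level, 18.1% among those with a similar level and 35.1% among those with a lower level. The median W_JA/W_W ratio of the 3 sets was 3.85, 2.43 and 3.41.

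**Figure D2:**
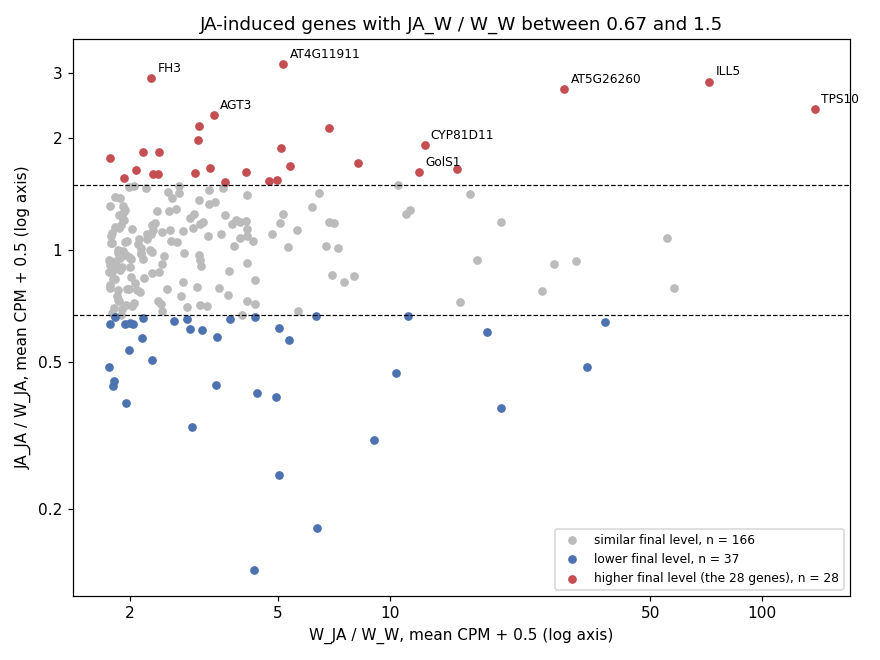
JA_JA/W_JA against W_JA/W_W for the 231 genes induced by JA and flat between histories without challenge, both as ratios of mean CPM + 0.5 on log axes; each point is a gene and dashed lines mark 1.5 and its inverse. The 28 genes lie above the upper line by construction, with TPS10 and ILL5 at the far right.

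The promoters of 4 of the genes are shown because they carry the G-box CACGTG, or at least 2 of the related MYC-type motifs CACATG and AACGTG, in a window free of other annotated genes. MYC factors, the main activators of jasmonate genes, bind such motifs. Each sequence is the 250 bases before the annotated gene start in the RefSeq TAIR10.1 assembly, written 5′ to 3′ on the gene's strand, with these motifs on either strand in capitals. The windows are chr2:19370479-19370728 (minus strand) for GolS1, chr2:10294036-10294285 (plus) for TPS10, chr3:10790554-10790803 (minus) for CYP81D11 and chr5:6413312-6413561 (minus) for AT5G19110.
GolS1: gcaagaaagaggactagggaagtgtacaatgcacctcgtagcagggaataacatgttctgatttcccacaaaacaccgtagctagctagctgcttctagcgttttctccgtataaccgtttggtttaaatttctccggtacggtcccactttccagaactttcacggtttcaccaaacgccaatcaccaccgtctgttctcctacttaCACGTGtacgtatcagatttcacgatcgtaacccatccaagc
TPS10: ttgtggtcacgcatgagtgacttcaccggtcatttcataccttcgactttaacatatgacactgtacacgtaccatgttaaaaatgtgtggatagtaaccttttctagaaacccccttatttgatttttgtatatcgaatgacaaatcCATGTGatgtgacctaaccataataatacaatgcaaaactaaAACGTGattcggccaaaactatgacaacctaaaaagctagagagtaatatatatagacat
CYP81D11: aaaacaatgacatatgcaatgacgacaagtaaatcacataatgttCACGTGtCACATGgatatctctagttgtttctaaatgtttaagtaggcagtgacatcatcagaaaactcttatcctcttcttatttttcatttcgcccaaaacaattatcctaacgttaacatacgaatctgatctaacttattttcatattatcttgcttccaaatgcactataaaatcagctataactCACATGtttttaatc
AT5G19110: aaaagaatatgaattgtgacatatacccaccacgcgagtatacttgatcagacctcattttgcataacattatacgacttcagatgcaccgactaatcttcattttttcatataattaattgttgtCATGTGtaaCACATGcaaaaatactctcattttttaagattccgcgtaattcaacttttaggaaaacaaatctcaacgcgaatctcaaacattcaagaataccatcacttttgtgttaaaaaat

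The G-box of GolS1 began 42 bases before the gene start. CYP81D11 held a G-box with a CACATG motif right behind it and another CACATG near the gene start, and the window of AT5G19110 held a pair of CACATG motifs on opposite strands. TPS10 had a CACATG 102 bases and an AACGTG 60 bases before its start.

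Over the 28 windows the G-box was found in 5 (17.9%), in 13.3% of the promoters with a similar and 5.56% of those with a lower final level, and in 6.49% of all 27443 promoters. CACATG was in 21.4% of the 28, in 19.3% and 22.2% of the other sets and in 11.1% of all promoters. AACGTG was in 17.9%, beside 21.7%, 8.33% and 7.54%. At least 1 of the MYC-type motifs was in 14 of the 28 windows (50%), in 46.4% of the similar set, 36.1% of the lower set and 22.8% of all promoters. So a share above that of all promoters was also seen in the JA-induced genes with a similar final level, and no test was run.

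Motifs of other factor families were searched in the same windows. W-boxes (TTGACC or TTGACT), bound by WRKY factors, were in 21.4% of the 28 windows and 28.4% of all promoters. TGACG, bound by TGA factors, was in 28.6% and 18.6%, TATAAA in 42.9% and 47.4%, and GCCGCC, bound by ERF factors, in none of the 28 and in 1.87%. Both strands were searched and a match is only a match of letters. In 9 of the 28 windows another annotated gene was touched, and of the 19 clear windows 8 held a MYC-type motif.

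**Figure D3:**
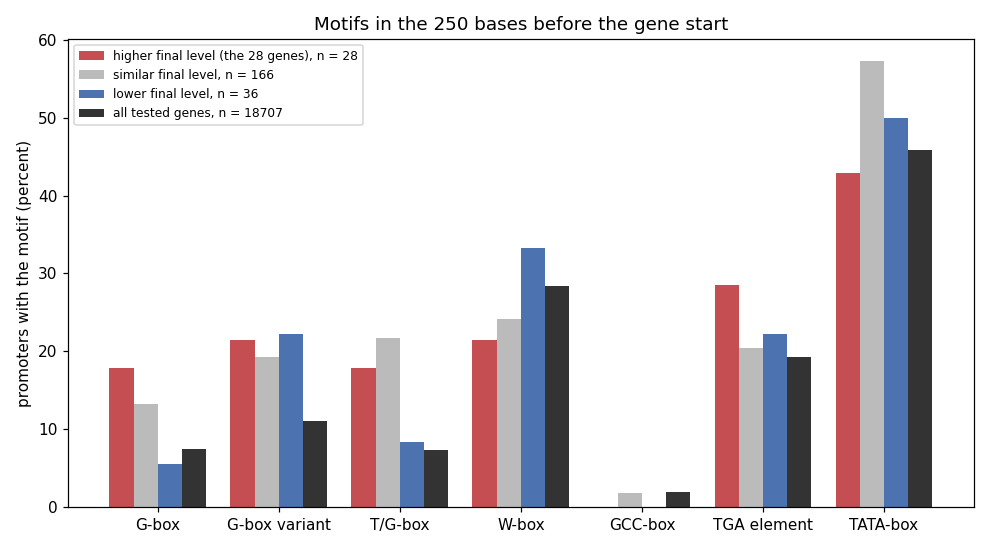
Share of promoters (percent, bars) with each motif in the 250 bases before the gene start, for the 28 genes, the JA-induced genes with a similar or lower final level, and all genes tested. The G-box bar is 17.9% for the 28 genes and 13.3% for the similar set.

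Sugar metabolism gave the most abundant member. GolS1 (AT2G47180, chr2:19368798-19370478, minus strand, 4 exons) encodes galactinol synthase, which makes the galactose donor for raffinose sugars. GolS1 stood at 11.03, 15.9, 18.9 and 16.4 CPM in W_W and at 172, 201, 174 and 222 CPM in W_JA. In JA-history plants it stood at 30.5, 18.1, 21.4 and 16.3 CPM in JA_W and 338, 331, 319.5 and 259.6 CPM in JA_JA. Every JA_JA library was above every W_JA library, and JA_W replicate 1 was the highest unchallenged library. The JA_JA/W_JA ratio was 1.62 and JA_W/W_W was 1.37. GolS1 overlaps ARF1A1C on the opposite strand, whose mean was 216 ± 5.89 CPM in W_W and 163 ± 6.41 in JA_JA. The strand setting of the counting is not given, so reads of the shared stretch cannot be told apart.

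DIN9 (AT1G67070, chr1:25041833-25044659, plus strand, 4 exons) encodes a phosphomannose isomerase and was first named as a dark-induced gene. DIN9 stood at 4.49, 4.50, 5.93 and 4.18 CPM in W_W and at 11.2, 11.2, 12.1 and 12.2 CPM in W_JA. After a JA history the values were 7.36, 6.27, 4.17 and 4.41 CPM in JA_W and 20.5, 18.8, 18.8 and 17.99 CPM in JA_JA. Its JA_JA libraries spanned 17.99 to 20.5 CPM and were all above the W_JA libraries. JA_JA/W_JA was 1.61.

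Amino acid and sulfur metabolism supplied ASN1, AGT3 and OASC. ASN1 (AT3G47340, chr3:17437840-17441431, minus strand, 10 exons) encodes a glutamine-dependent asparagine synthetase, which makes the nitrogen transport form asparagine. ASN1 stood at 12.9, 6.34, 7.16 and 15.1 CPM in W_W and at 53.1, 40.04, 36.5 and 46.99 CPM in W_JA. The JA-history libraries held 7.88, 9.32, 9.99 and 7.83 CPM in JA_W and 61.4, 76.4, 79.9 and 69.5 CPM in JA_JA. Unchallenged levels overlapped between the histories, W_W itself spreading from 6.34 to 15.1 CPM, while the challenged groups did not overlap. JA_JA/W_JA was 1.62 and JA_W/W_W 0.851.

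AGT3 (AT2G38400, chr2:16083645-16086453, plus strand, 7 exons), annotated as an alanine:glyoxylate aminotransferase, had the clearest separation of this group. AGT3 stood at 8.11, 6.58, 7.66 and 8.92 CPM in W_W and at 22.6, 23.7, 35.5 and 27.8 CPM in W_JA. With JA given to the seedlings, the level was 10.4, 9.27, 9.18 and 9.49 CPM in JA_W and 62.5, 57.8, 73.2 and 63.1 CPM in JA_JA. The lowest JA_JA library, at 57.8 CPM, was well above the highest W_JA library, at 35.5 CPM. JA_JA/W_JA was 2.32, and the gene met the rule in all 22 alternatives tried.

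OASC (AT3G59760, chr3:22071948-22075453, minus strand, 10 exons) encodes the mitochondrial form of the enzyme that makes cysteine from O-acetylserine. OASC stood at 33.2, 33.01, 34.8 and 28.8 CPM in W_W and at 55.98, 64.8, 67.9 and 63.6 CPM in W_JA. Plants with a JA history had 35.7, 29.3, 32.8 and 30.8 CPM in JA_W and 109, 105, 90.4 and 90.5 CPM in JA_JA. W_W and JA_W overlapped, and all JA_JA libraries were above W_JA. JA_JA/W_JA was 1.56 and JA_W/W_W 0.990. TAAC (AT5G01500, chr5:198906-201586, plus strand, 10 exons), annotated as a thylakoid ATP/ADP carrier, stood at 16.8 ± 2.00 CPM in W_W, 36.9 ± 4.77 in W_JA, 23.1 ± 1.39 in JA_W and 68.1 ± 4.52 in JA_JA (SD, n = 4 a group). Its JA_W libraries, 22.8, 24.6, 23.8 and 21.3 CPM, were all above the W_W libraries, 15.6, 17.6, 19.1 and 14.7 CPM, so the higher level of JA-history plants was present before the challenge too.

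Among genes of specialised metabolism the terpene synthase gene TPS10 (AT2G24210, chr2:10294286-10297597, plus strand, 7 exons) had the largest W_JA/W_W ratio of the 28 with 0.5 added, 138. TPS10 makes the monoterpenes myrcene and ocimene, volatiles that wounded leaves release. TPS10 stood at 0.0292, 0.175, 0.124 and 0.0597 CPM in W_W and at 75.4, 79.3, 101 and 72.6 CPM in W_JA. In JA-history plants it stood at 0.3795, 0.233, 0.291 and 0.526 CPM in JA_W and 153, 210.1, 233 and 194 CPM in JA_JA. It was nearly silent without a challenge, with 13 reads over the 4 W_W libraries and 49 over JA_W, and the JA_JA libraries were at least 1.5 times the highest W_JA library. JA_JA/W_JA was 2.40. JA_W/W_W was 1.44 with 0.5 CPM added and 3.69 without, so its place inside the rule's flat range rests on the added 0.5.

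Cytochrome P450 enzymes were represented by CYP81D11 and CYP81F4. CYP81D11 (AT3G28740, chr3:10788698-10790553, minus strand, 3 exons) is a P450 gene known to respond to jasmonate and to foreign chemicals. CYP81D11 stood at 2.13, 1.43, 1.14 and 1.79 CPM in W_W and at 17.7, 23.8, 34.7 and 27.05 CPM in W_JA. After a JA history the values were 4.17, 0.233, 0.408 and 0.584 CPM in JA_W and 39.3, 31.7, 59.5 and 69.6 CPM in JA_JA. JA_W replicate 1 was far above the other JA_W libraries. JA_JA/W_JA was 1.92, but JA_JA replicate 2 lay below W_JA replicate 3. JA_W/W_W was 0.871 and 0.428 without JA_W replicate 1, which takes the gene out of the rule. It overlaps HMG on the opposite strand, at 46.7 to 57.0 CPM in the group means.

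CYP81F4 (AT4G37410, chr4:17590772-17592920, plus strand, 2 exons), which acts on the way to methoxylated indole glucosinolates, had no read in any unchallenged library. It stood at 2.27, 2.16, 1.70 and 2.05 CPM in W_JA and at 3.40, 4.79, 4.56 and 4.42 CPM in JA_JA, without overlap. Against the level of 3 reads over the group, W_JA was at least 91.5-fold higher than W_W and JA_JA at least 196-fold higher than JA_W. Its neighbour CYP81F3, of the same subfamily, stood at 11.8 ± 2.14 CPM in W_W and 11.4 ± 2.88 CPM in JA_JA.

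Hydrolases formed another group, described here with a few other enzyme genes. ILL5 (AT1G51780, chr1:19204512-19206586, plus strand, 5 exons) belongs to the amidohydrolases that release hormones from amino acid conjugates. ILL5 stood at 0.175, 0.117, 0.0618 and 0.0895 CPM in W_W and at 13.3, 35.2, 68.3 and 57.2 CPM in W_JA. The JA-history libraries held 0.438, 0.117, 0.233 and 0.0876 CPM in JA_W and 126, 106, 129 and 137 CPM in JA_JA. W_JA replicate 1 was low, the W_JA libraries spanned more than the JA_JA libraries, and the groups did not overlap. JA_JA/W_JA was 2.85.

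MES7 (AT2G23560, chr2:10029060-10030443, minus strand, 3 exons), of the methyl esterase family, stood at 1.26 ± 0.168 CPM in W_W, 3.73 ± 1.27 in W_JA, 1.57 ± 0.0883 in JA_W and 7.27 ± 0.856 in JA_JA. Its JA_JA libraries, from 6.07 to 8.09 CPM, were above W_JA, from 2.54 to 5.18 CPM. MEE69 (AT4G37140, chr4:17492013-17492806, minus strand, 2 exons), annotated as an alpha/beta hydrolase, stood at 0.0529 ± 0.0457 CPM in W_W, 1.49 ± 0.370 in W_JA, 0.306 ± 0.120 in JA_W and 2.54 ± 0.485 in JA_JA. It lies 64 bases from MES9, which stood at 5.49, 31.6, 3.79 and 17.9 CPM in the same groups, so its final order of the challenged groups was opposite to that of MEE69. JA_W/W_W of MEE69 was 1.46 with 0.5 added and 5.79 without.

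AT4G17480 (chr4:9744913-9747104, minus strand, 6 exons), another alpha/beta hydrolase gene, stood at 0.0827 ± 0.0478 CPM in W_W, 1.27 ± 0.411 in W_JA, 0.233 ± 0.137 in JA_W and 3.01 ± 0.137 in JA_JA. Its neighbour AT4G17470, 45 bases away with the same annotation, was far more abundant, at 0.728 ± 0.222, 240 ± 43.4, 7.19 ± 7.48 and 577 ± 52.0 CPM. Reads could be shared between near copies, so the low counts of AT4G17480 are uncertain. AT1G77520 (chr1:29130375-29132272, plus strand, 4 exons), an O-methyltransferase family gene, stood at 0.0811 ± 0.0658 CPM in W_W, 1.28 ± 0.201 in W_JA, 0.270 ± 0.131 in JA_W and 3.34 ± 0.815 in JA_JA. AT5G38130 (chr5:15217819-15219372, minus strand, 1 exon), an acyltransferase family gene, stood at 0.0369 ± 0.0367 CPM in W_W, 2.04 ± 0.715 in W_JA, 0.131 ± 0.0377 in JA_W and 3.40 ± 0.584 in JA_JA, and its JA_JA replicate 4 lay below W_JA replicate 4.

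Defence proteins and proteases were few. THI2.1 (AT1G72260, chr1:27198356-27199468, minus strand, 3 exons) encodes a thionin, a small antimicrobial peptide. THI2.1 stood at 0, 0, 0.0309 and 0.0298 CPM in W_W and at 2.73, 1.78, 1.70 and 2.02 CPM in W_JA. With JA given to the seedlings, the level was 0.0584, 0.175, 0 and 0.0584 CPM in JA_W and 3.66, 2.69, 4.03 and 3.37 CPM in JA_JA. It had 2 reads over W_W, for a count ratio of W_JA to W_W of 138 (95% exact interval 37.8 to 1143, counting error only). JA_JA/W_JA was 1.54, and JA_JA replicate 2 lay below W_JA replicate 1. It overlaps the kinesin gene AT1G72250 on the opposite strand, which stood at 2.69 ± 0.928 CPM in W_W, where THI2.1 was at 0.0152 CPM.

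CEP3 (AT3G48350, chr3:17905725-17907690, plus strand, 3 exons), a cysteine proteinase gene, had close replicates in W_W and more spread ones in W_JA. CEP3 stood at 1.81, 2.02, 1.98 and 1.85 CPM in W_W and at 13.3, 13.8, 18.6 and 18.3 CPM in W_JA. Plants with a JA history had 3.42, 2.91, 3.26 and 2.72 CPM in JA_W and 30.3, 36.1, 38.6 and 33.98 CPM in JA_JA. JA_W was above W_W and JA_JA above W_JA in every library, with JA_JA/W_JA 2.14 and JA_W/W_W 1.48, the highest inside the rule. AT5G19110 (chr5:6411443-6413311, minus strand, 2 exons), of the aspartyl protease family, had 4 reads in each unchallenged group. It stood at 3.17, 3.94, 3.85 and 4.36 CPM in W_JA and 7.15, 7.25, 6.77 and 6.53 CPM in JA_JA, without overlap.

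A pair of TRAF-like genes was included, a family named for a domain of protein-protein contact. ZW9 (AT1G58270, chr1:21611803-21614169, minus strand, 5 exons) stood at 12.7 ± 1.96 CPM in W_W, 70.3 ± 13.4 in W_JA, 18.7 ± 1.53 in JA_W and 118 ± 16.7 in JA_JA, with all JA_W libraries above W_W. AT5G26260 (chr5:9200271-9202461, plus strand, 7 exons) had 1 read over W_W and 10 over JA_W, and stood at 11.3, 14.8, 16.8 and 14.7 CPM in W_JA and 39.5, 33.9, 43.97 and 42.8 CPM in JA_JA. The lowest JA_JA library was about double the highest W_JA library. JA_JA/W_JA was 2.72, and the count ratio of W_JA to W_W was 1939 (95% exact interval 348 to 76627).

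A pair of enzyme genes of general metabolism had W_JA/W_W ratios of 2.37 and 1.76. AT5G44720 (chr5:18042935-18045514, plus strand, 8 exons), of the molybdenum cofactor sulfurase family, stood at 29.2 ± 3.04 CPM in W_W, 70.1 ± 5.38 in W_JA, 40.99 ± 3.98 in JA_W and 113 ± 10.4 in JA_JA. AT5G48960 (chr5:19849437-19853598, plus strand, 17 exons), a nucleotidase of the HAD superfamily, stood at 23.01 ± 2.31 CPM in W_W, 40.9 ± 6.15 in W_JA, 33.5 ± 1.37 in JA_W and 72.97 ± 3.08 in JA_JA. In both genes every JA_W library was above every W_W library. AT5G44720 overlaps AT5G44730 on the opposite strand, at 9.78 to 10.8 CPM.

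AT3G04000 (chr3:1035238-1036672, plus strand, 2 exons), with an NAD(P)-binding Rossmann fold, had a lower JA_W than W_W mean. AT3G04000 stood at 2.57, 3.71, 2.75 and 2.72 CPM in W_W and at 7.46, 11.5, 9.57 and 14.5 CPM in W_JA. In JA-history plants it stood at 3.91, 1.34, 1.02 and 1.26 CPM in JA_W and 15.7, 16.1, 19.1 and 22.3 CPM in JA_JA. JA_W replicate 1 was again far above the other JA_W libraries. JA_W/W_W was 0.693, the lowest inside the rule, and 0.496 without JA_W replicate 1, outside it. Over all JA_W libraries but without the added 0.5 it was 0.641, also outside. AT3G04000 overlaps the glycosyl hydrolase gene AT3G04010 on the opposite strand, which stood at 10.01 ± 1.28 CPM in W_W and 5.54 ± 2.12 CPM in JA_JA. It directly adjoins AT3G03990 on the same strand, an alpha/beta hydrolase gene. AT3G03990 stood at 57.4 ± 4.97, 70.1 ± 4.68, 24.4 ± 3.10 and 49.6 ± 7.02 CPM in W_W, W_JA, JA_W and JA_JA. Whether its reads entered the counts of AT3G04000 was not tested.

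AT4G11911 (chr4:7158086-7159561, plus strand, 4 exons) had the highest JA_JA/W_JA ratio, 3.17. It is annotated as STAY-GREEN-like, a family tied to chlorophyll breakdown. No read was counted in W_W and 4 reads over JA_W. It stood at 0.994, 2.75, 2.45 and 2.13 CPM in W_JA and 6.65, 8.83, 8.24 and 7.04 CPM in JA_JA, without overlap, and W_JA was at least 93.8-fold higher than W_W. AT4G11910, 38 bases away on the same strand and with the same annotation, had its lower means in JA-history plants, at 2.18 ± 0.502, 2.12 ± 0.471, 0.489 ± 0.307 and 0.648 ± 0.175 CPM in W_W, W_JA, JA_W and JA_JA. Whether reads of these neighbours were assigned differently was not tested.

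FH3 (AT4G15200, chr4:8662824-8666050, minus strand, 5 exons), a formin that helps build actin filaments, was scarce. Its W_JA libraries held 0.280, 0.355, 1.00 and 0.994 CPM and its JA_JA libraries 2.61, 3.19, 4.44 and 1.19 CPM. Without a challenge it had 1 read over W_W and 15 over JA_W, at 0.204, 0.146, 0.0583 and 0.0292 CPM in the JA_W libraries, so its place inside the flat range rests on the added 0.5. JA_JA/W_JA was 2.90, JA_JA replicate 4 was low, and the challenged groups did not overlap. BAM5, 283 bases away on the same strand, had the same order of groups at far higher levels, 2.81 ± 1.44, 153 ± 34.4, 23.3 ± 4.43 and 277 ± 13.4 CPM.

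Genes of no known function made up the rest. AT4G02360 (chr4:1041086-1041802, plus strand, 1 exon), of a family of unknown function, stood at 0.918 ± 0.424 CPM in W_W, 20.9 ± 2.39 in W_JA, 0.955 ± 0.375 in JA_W and 34.9 ± 5.98 in JA_JA. AT1G73210 (chr1:27527752-27530952, minus strand, 6 exons) stood at 2.40 ± 0.522 CPM in W_W, 8.18 ± 1.46 in W_JA, 2.57 ± 0.577 in JA_W and 13.5 ± 1.62 in JA_JA. AT4G11211 (chr4:6836106-6836588, plus strand, 1 exon) stood at 3.08 ± 0.850 CPM in W_W, 6.96 ± 1.72 in W_JA, 4.04 ± 0.739 in JA_W and 11.8 ± 5.63 in JA_JA, and its JA_JA libraries spread from 5.49 to 19.2 CPM, across the W_JA range of 4.54 to 8.26 CPM.

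Whether the genes can be called primed depended on the measure. Their CPM gain on challenge was larger in JA-history plants in all 28, but the rule alone forces this, as it forces the ratio JA_JA/JA_W over W_JA/W_W to be at least 1 with 0.5 added. Fitted to counts with edgeR, whose scale adds far less to low counts, the challenge effect in JA-history minus water-history plants was positive in 19 genes and negative in 9, from -1.72 to 1.41 in log2 with a median of 0.34. The 9 negative genes were TPS10, AT5G26260, AT4G11911, THI2.1, AT5G38130, AT1G77520, AT4G17480, FH3 and MEE69, all with a W_W mean of 0.0969 CPM or less. All 15 genes at 1 CPM or more in W_W were positive. At these levels the added 0.5 weighs little, so the rule largely sets their sign and nothing is read from it. CYP81F4 had no read in the unchallenged groups, so its difference of 1.17 is its log2 change of JA_JA against W_JA, also 1.17.

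At an edgeR adjusted p threshold of 0.05, 4 genes were called higher in this difference, beside 8.01% of the genes tested: OASC, TAAC, AGT3 and AT3G04000. Their log2 differences were 0.63, 0.38, 0.92 and 1.41. OASC and AGT3 were called in every alternative fit, whereas TAAC and AT3G04000 were each lost in several. With no filter on low counts only OASC and AGT3 were called, and the same 2 without JA_W replicate 3 or 4. None was called lower (10.4% of the genes tested). MEE69 was called lower with DESeq2 and without W_W replicate 4, W_JA replicate 3 or JA_W replicate 4. Because the sign of this difference turned with the scale for 9 genes, the set is named here by its rule, the higher final level, and not as primed genes.

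**Figure D4:**
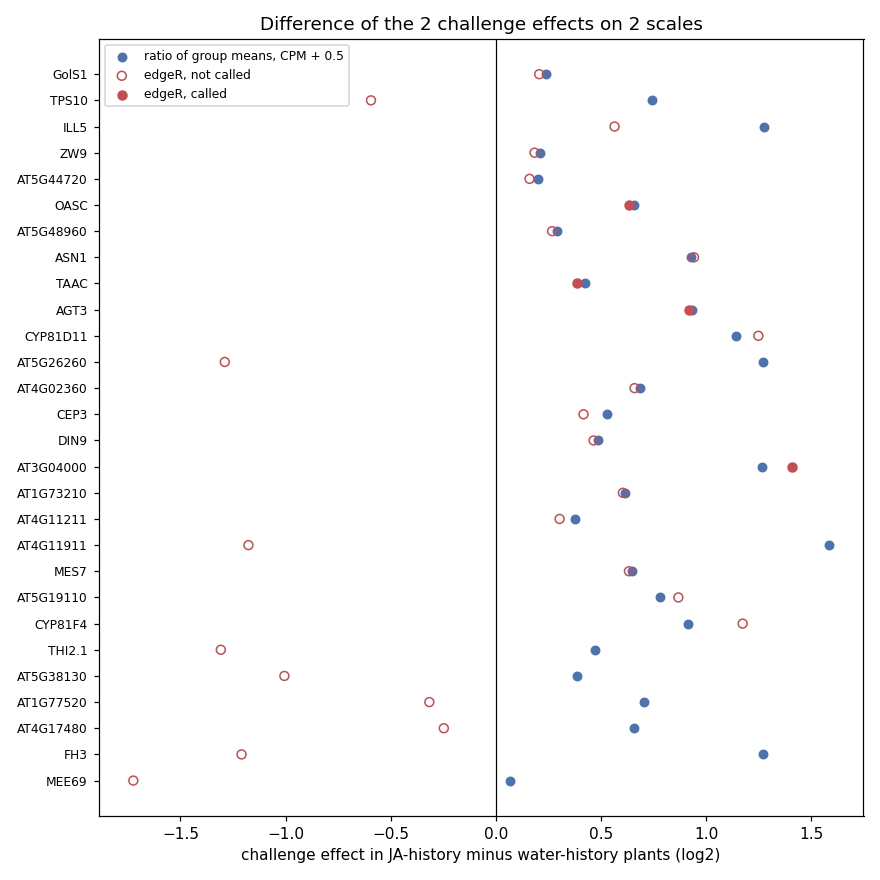
Challenge effect in JA-history minus water-history plants (log2) for each of the 28 genes, from group means of CPM + 0.5 (blue) and from edgeR (red; filled where called at an adjusted p of 0.05). All blue points are above 0 by construction, and 9 red points are below 0.

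The other edgeR comparisons are given beside their backgrounds only. All 28 genes were called higher in W_JA than W_W (13.9% of the genes tested) and in JA_JA than JA_W (15.4%). In JA_JA against W_JA, 27 were called higher (18.9%), all but CYP81D11, with a median log2 change of 0.94 over the 28 and 0.01 over all genes tested. In JA_W against W_W, 15 were called higher (33.8%) and none lower (31.1%), with a median of 0.61 over the 28 and 0.05 over all genes tested. Of the 15 genes at 1 CPM or more in W_W, 8 were among them. Their log2 changes were 0.34 (DIN9), 0.41 (AGT3), 0.59 (GolS1 and TAAC), 0.62 (AT5G44720), 0.66 (AT5G48960), 0.68 (ZW9) and 0.81 (CEP3). The other genes called higher, all under 1 CPM in W_W, had log2 changes of 1.59 to 3.43. Without JA_W replicate 1, 12 genes were called higher in JA_W against W_W and 2 were called lower, CYP81D11 and AT3G04000. On TMM-scaled CPM, AT5G44720, AT5G48960, ZW9 and CEP3 had JA_W/W_W ratios of 1.52 to 1.59, above the 1.5 limit of the rule. A flat level without challenge therefore holds for all members only on the scale of the rule.

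Known jasmonate genes were read from 18 lists of jasmonate, defence and cell type genes, 184 genes in all. Of their 181 tested genes, 3 were members (1.66%), beside 28 of all 19224 genes tested (0.146%): TPS10 (wound outputs), THI2.1 (ERF-branch outputs) and CYP81F4 (indole glucosinolates). The 5 lists of JA synthesis, turnover, JAZ repressors, perception and wound outputs held 62 genes, of which 43 met the rule's challenge condition. Among these 43, JA_W/W_W was above 1.5 in 11, below 0.67 in 15 and between in 17. A JA_JA/W_JA of at least 1.5 was found in 3 of the 43 (6.98%), TPS10, VSP1 and VSP2, beside 111 of the 576 tested genes that met the challenge condition (19.3%). Among the 17 genes in the flat range 1 was a member (5.88%), beside the 28 of 231 (12.1%). With so few list genes, nothing is read from these shares.

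The storage protein genes VSP1 and VSP2, classic wound markers, had JA_JA/W_JA of 2.46 and 2.53 but already differed between histories without a challenge, with JA_W/W_W of 7.92 and 28.3, and so failed the rule. VSP2 stood at 3.96 ± 1.28, 2726 ± 404, 126 ± 29.9 and 6886 ± 1030 CPM in W_W, W_JA, JA_W and JA_JA. The synthesis genes OPR3 and AOC1 came close, with JA_JA/W_JA of 1.47 and 1.49. JAZ10, a JAZ repressor gene, had a ratio of 0.724, and the salicylate methyltransferase gene BSMT1 had 0.482.

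By edgeR, the challenge of water-history plants raised 12 of 14 JA synthesis genes, all 9 tested turnover genes, 11 of 13 JAZ genes, 7 of 11 perception and transcription factor genes and 13 of 14 wound outputs, with none lower. The median log2 changes of these lists were 1.08, 5.23, 1.82, 0.63 and 5.02, beside 0.00 over all genes tested. In JA_JA against W_JA, 5 synthesis genes were higher and 4 lower, no turnover gene was higher and 1 was lower, 2 JAZ genes were higher and none lower, 1 perception gene was higher and 6 lower, and 6 wound outputs were higher and 3 lower. The medians there were -0.05, -0.22, -0.02, -0.23 and 0.12, beside 0.01. By annotated family, the 28 held 2 cytochrome P450 genes of 129 tested, 1 terpene synthase of 12 and 1 transporter of 525. The set with a similar final level held 5, 0 and 9 genes of these families, and the lower set 0, 1 and 3. The other families searched held no member, among them protein kinases (1081 tested) and WRKY, MYB, bHLH, AP2/ERF and NAC factors.

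Some libraries were the highest or lowest of their group for many members. The same counts were not made over all genes tested, so nothing is read from the members' counts. JA_W replicate 1 was the highest JA_W library for 18 of the 28 genes, with a median deviation of 0.11 in log2 over the 28 and 0.08 over all genes tested. The 18 include CYP81F4, which was at 0 CPM in every JA_W library. W_JA replicate 1 was the lowest W_JA library for 17 genes (median -0.20, and -0.03 over all genes tested), and JA_JA replicate 4 was the lowest of its group for 12 (median -0.06 and -0.05). W_W replicate 1 was the lowest W_W library for 14 genes (median -0.03 and -0.04). The 14 include AT5G26260, AT4G11911, CYP81F4 and THI2.1, where it tied with other W_W libraries at 0 CPM. Leaving out each library in turn gave 26 to 36 genes, of which 24 to 28 were shared, and 18 of the 28 met the rule in all 16 such runs.

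At the edges of the rule, MEE69 was inside at a JA_JA/W_JA of 1.53 and AOC1 outside at 1.49, with AOC1 at 87.97, 927, 132 and 1386 CPM in W_W, W_JA, JA_W and JA_JA. For W_JA/W_W, AT5G48960 was inside at 1.76 and XTH6, a cell wall xyloglucan enzyme, outside at 1.72. For JA_W/W_W, CEP3 was inside at 1.48 and AT3G50620 outside at 1.56, and at the lower limit AT3G04000 was inside at 0.693 and AT5G16410 outside at 0.586. For the largest group mean, with 0.5 added, MEE69 was inside at 3.04 and IQD26 outside at 2.31.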

How the data were processed

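Each library has 1 table deposited by the authors, with read counts per gene and CPM. The deposited CPM equalled the deposited count over the library total times 1e6 to within 5.09e-11. The submitters' processing notes name the TAIR10 genome and the tools HTSeq 0.9.1, STAR 2.6.1b and Trimmomatic 0.38; settings and strandedness are not given in the sources used here. Coordinates, names and promoters came from the RefSeq TAIR10.1 assembly and annotation, in which all 28 genes were found.

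The rule was applied to the deposited CPM. Counts were fitted with edgeR 4.0.16 (R 4.3.3): filterByExpr by group (minimum count 10, minimum total 15; 19224 genes kept and 15038 removed), TMM factors 0.888 to 1.14, a mean for each of the 4 groups fitted jointly to the 16 libraries (biological coefficient of variation 15.4%, with 12 degrees of freedom left), robust quasi-likelihood F-test, and Benjamini-Hochberg adjustment over all genes tested at 0.05. The 5 comparisons were W_JA against W_W, JA_JA against JA_W, JA_W against W_W, JA_JA against W_JA, and the challenge effect in JA-history minus water-history plants. DESeq2 1.42.0 was an alternative. The fit and the rule were tested on simulated data.

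The members, gene lists and motifs were chosen with earlier results of these data known. With 30 or fewer members, all were named. Same-numbered libraries did not deviate together (correlations -0.42 to 0.42, over 0.1 in 5 of 24 pairs), so replicate numbers were not used as pairs. The labels call the replicates biological. No pair of replicates agreed within sampling noise (chi-square per gene 5.86 to 72.9). A level against a group with no read uses 3 reads over that group. Intervals and this floor cover counting error only, since reads carry no molecular identifiers. Alternatives were other scalings, pseudocounts of 0.1 and 1, medians, a JA_JA/W_JA limit of 2, no filter on low counts, a replicate block and leaving out each library.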

Additional observations from a re-analysis of the deposited data

Results flagged for a closer look

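Of 109 sets of 4 replicate values of the genes, 9 had a library whose gap to the nearest other was large for the range of its group by Dixon's criterion, and chance flags about 1 in 20. JA_W replicate 1 stood apart for CYP81D11 at 4.17 CPM and for AT3G04000 at 3.91 CPM, both above the other JA_W libraries. AT3G04000 was also high in W_W replicate 2 at 3.71 CPM. ZW9 was low in JA_JA replicate 1 at 93.8 CPM, and AT5G48960 was low in W_W replicate 2 at 19.6 CPM. The others were values of a few reads: AT5G26260 in W_W replicate 4 at 0.0298 CPM, FH3 in W_W replicate 1 at 0.0292 CPM, AT4G17480 in W_W replicate 3 at 0.154 CPM and AT4G17480 in JA_W replicate 3 at 0.0291 CPM.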

How the results depend on the processing

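The rule found 39 genes with TMM-scaled CPM (24 shared with the 28) and 39 with DESeq2 size factors (25 shared), 21 with a pseudocount of 0.1 (17 shared), 26 with a pseudocount of 1 (23 shared), 28 with medians (24 shared) and 8 with a JA_JA/W_JA limit of 2 (AGT3, TPS10, ILL5, AT5G26260, CEP3, AT4G11911, AT1G77520 and FH3). AGT3 and AT4G11911 met it in all 22 alternatives. Without 1 library the count of genes was 26 to 36, genes called higher were 28 in both challenge comparisons, 12 to 16 in JA_W against W_W, 23 to 28 in JA_JA against W_JA and 2 to 6 in the difference of challenge effects, and 24 to 26 did not overlap between JA_JA and W_JA. The difference of challenge effects fell to 2 without JA_W replicate 3 or 4, and to 2 with no filter on low counts; the cause was not tested. DESeq2 called 6 higher and MEE69 lower in it. MEE69 was also called lower in it without W_W replicate 4, W_JA replicate 3 or JA_W replicate 4. With the replicate number as a block, 28, 28, 14, 26 and 3 genes were called in the 5 comparisons in the order given above; the same-numbered samples share only a number. With library totals only, 13 and 25 were called in JA_W against W_W and JA_JA against W_JA. Depth limits the genes with a few reads in unchallenged groups, where ratios rest on the added 0.5. The genes that did not meet the rule with a pseudocount of 0.1 were AT1G77520, AT3G04000, AT4G17480, AT5G26260, AT5G38130, CEP3, FH3, ILL5, MEE69, THI2.1 and TPS10. Of these, CEP3 and AT3G04000 were not genes of a few reads, with 257 and 395 reads over W_W. Their JA_W/W_W ratios without the added 0.5 were 1.61 and 0.641.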
